A study of Mus musculus with 10 samples.

Results

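Lipid droplets are stores of neutral lipid that cells wrap in a coat of proteins. Their triglyceride is made at the endoplasmic reticulum and is later broken down in steps by lipases, which release fatty acids. Macrophages that take up myelin are known to fill with such droplets. The 10 genes described here cover coat proteins (*Plin2*, *Plin3*), the enzymes of the last step of triglyceride synthesis (*Dgat1*, *Dgat2*), the lipases of the droplet (*Pnpla2*, *Lipe*, *Mgll*), small proteins that inhibit the first of these lipases (*Hilpda*, *G0s2*) and a secreted lipase that acts on lipoproteins (*Lpl*). They were taken by name from the 55487 genes of the count table, with no threshold on any value, and each name matched 1 gene. A test needed a level above 1 CPM (the read count of a gene scaled by the size of its library) in 3 or more libraries, and 8 of the 10 genes reached it.

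The cells came from spinal cords of 5 adult male C57BL/6 mice with the Arg1tm1Lky allele, a reporter in which cells that switch on *Arg1* make yellow fluorescent protein (YFP). All 5 mice had experimental autoimmune encephalomyelitis (EAE), a model of multiple sclerosis, and were taken at peak disease, so that no group came from healthy animals. From each mouse 200000 YFP+ cells (ARG1+) and 100000 YFP- cells (ARG1-) were sorted from viable CD45+CX3CR1+ cells that lacked CD3 and Ly6G, so each mouse (m2, m6, m234, m235 or m236) gave a pair of libraries and each group has 5. The gate does not separate monocyte-derived cells from macrophages of the CNS borders or microglia, and the number of sorted cells went with the group in every animal, so that effects of that number and of ARG1 status cannot be told apart. In bulk libraries of this kind, fewer cells of a type and less RNA per cell cannot be told apart either.

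The libraries held 8396863 to 35455643 counts, and the smallest was the ARG1- library of m234, where the others had at least 28212174. *Arg1* lay between 588 and 1049 CPM in the YFP+ libraries and between 14.3 and 27.0 CPM in the others, in the direction of the sort labels. *Ptprc*, which encodes CD45, had 595 to 827 CPM over all libraries, whereas *Cd3e* and *Ly6g* stayed at 0.234 CPM or less. *Cx3cr1* had 43.9 to 233 CPM in ARG1+ and 102 to 565 CPM in ARG1- libraries (log2 fold change -1.01, FDR 0.153). The 8 adipocyte markers summed to 0.323 CPM or less in every library, and 4 of them had no count at all, among them *Cidec* and *Lep*. The cell type markers did differ between the groups. Of 8 monocyte markers, 5 were lower in ARG1+ cells (among them *Ccr2*, *Plac8* and *Vcan*) and 0 higher, with sums of 8570 to 12931 CPM in ARG1+ and 7594 to 10577 CPM in ARG1- libraries, most of it from *Fn1*. In the blocked fit described below 6 of them were lower and 1, *Fn1*, was higher. Of 5 dendritic cell markers tested, 4 were lower in ARG1+ cells (*Flt3*, *Zbtb46*, *Ccr7* and *Dpp4*). The remaining one, *Clec9a*, was the most abundant of the list, with means of 13.9 and 11.8 CPM (log2 fold change 0.28, FDR 0.547). All 8 summed to 9.28 to 23.9 CPM against 20.5 to 39.7 CPM. Of 4 tested markers of CNS-associated macrophages, 2 were higher in ARG1+ cells (*Mrc1* and *Pf4*). All 4 were higher in the blocked fit (*F13a1* and *Siglec1* too). The 8 summed to 808 to 1612 CPM against 415 to 980 CPM, most of it from *F13a1* (means of 1021 and 595 CPM). *Cd163*, *Lyve1*, *Cbr2* and *Folr2* were each below the limit for a test. None of the 8 microglia markers passed the FDR limit, where 6 were lower in the blocked fit, and they summed to 753 to 1126 CPM in ARG1+ libraries, to 2655 CPM in the ARG1- library of m234 and to 810 to 1451 CPM in the other ARG1- libraries. The 8 markers of oligodendrocytes and myelin summed to 149 to 183 CPM in ARG1+ and 140 to 202 CPM in ARG1- libraries. Those of endothelium and astrocytes summed to 142 to 219 and 169 to 207 CPM, with *Aldoc* higher and *Flt1* lower in ARG1+ cells. Those of neutrophils, T and NK cells, and B cells summed to at most 32.7, 4.10 and 47.7 CPM in any library. The B cell sums of all ARG1+ libraries lay below those of the ARG1- libraries, which were 16.4 to 47.7 CPM. The B cell marker *Ighm* and the neutrophil marker *S100a9* were lower in ARG1+ cells. No tested marker of oligodendrocytes and myelin or of T and NK cells passed the FDR limit. In the blocked fit *S100a8* and *Mbp* were higher too, and *Cnp* and *Cldn11* lower. The part of these markers in the results below was not tested.

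Levels of different genes can be compared only per length, and per kilobase of exon the same order held in both groups. The length joins all annotated exons of a gene, and which transcripts these cells make was not tested. *Plin2* led with 441 ± 116 CPM per kb (SD, n = 5) in ARG1+ and 307 ± 75.3 CPM per kb (SD, n = 5) in ARG1- cells. *Hilpda* came next with 181 ± 43.3 and 89.4 ± 22.3 CPM per kb, then *Dgat1* with 69.8 ± 8.65 and 58.4 ± 9.60 CPM per kb. *Pnpla2* followed with 40.1 ± 6.19 and 38.2 ± 4.68 CPM per kb. After it came *Dgat2* with 23.9 ± 2.99 and 34.3 ± 10.2 CPM per kb, and *Plin3* with 15.5 ± 1.07 and 11.6 ± 1.49 CPM per kb. *Lpl* (9.47 ± 2.72 and 7.60 ± 1.66 CPM per kb) and *Lipe* (4.71 ± 0.422 and 6.47 ± 0.706 CPM per kb) were the lowest of the tested genes. In ARG1+ cells the libraries of each of these 8 genes lay clear of those of the next in the order. In ARG1- cells the ranges of *Hilpda* and *Dgat1*, of *Pnpla2* and *Dgat2*, of *Plin3* and *Lpl*, and of *Lpl* and *Lipe* overlapped.

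Of the 8 genes tested, 2 were higher in ARG1+ cells (*Hilpda* and *Plin3*) and 1 was lower (*Lipe*) at a false discovery rate (FDR) below 0.05 in edgeR's quasi-likelihood test. Over all 13740 genes tested, 6.82% were higher and 6.15% lower by the same limit, 937 and 845 genes. With library sizes taken from total counts alone, 701 genes were higher and 1282 lower, so that the share of higher genes among those called went from 52.6% to 35.4%, and *Dgat2* was called lower too. With the animal as a replicate block, which compares the libraries within each mouse, 4 of the 8 genes were higher (*Plin2*, *Plin3*, *Dgat1* and *Hilpda*) and 2 lower (*Dgat2* and *Lipe*), where 16.8% of all tested genes were higher and 18.3% lower. At the further limit of an absolute log2 fold change above 1, *Hilpda* alone remained, with 0.56% of all tested genes higher and 0.888% lower. The median log2 fold change of the 8 genes was 0.30 and that of all tested genes 0.00.

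**Figure D1:**
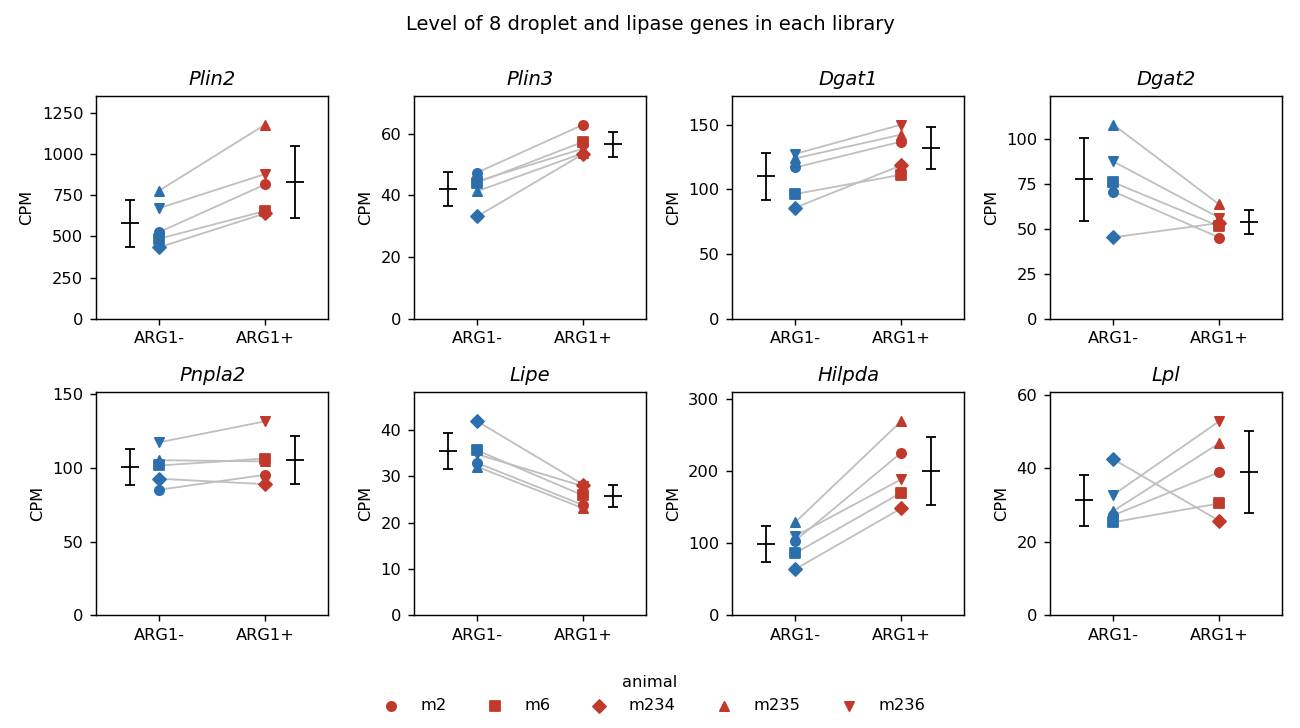
Level of the 8 tested genes in CPM (linear axis from 0), with ARG1- libraries in blue and ARG1+ libraries in red, a marker shape for each animal, grey lines joining the libraries of 1 animal and black bars for mean ± SD of 5 libraries. All 5 lines rise for *Plin2*, *Plin3*, *Dgat1* and *Hilpda*, all 5 fall for *Lipe*, and the line of m234 goes against the other 4 for *Dgat2* and *Lpl*.

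The coat protein perilipin 2, encoded by *Plin2*, covers droplets in most cell types and is often used as their marker. *Plin2* lies on chromosome 4 (reverse strand, bases 86648386 to 86670060 of GRCm38) and was the 171st most abundant of the 13740 tested genes by mean CPM. In ARG1+ cells it had 815 CPM in m2, 654 in m6, 639 in m234, 1178 in m235 and 878 in m236. In ARG1- cells it had 526 CPM in m2, 486 in m6, 434 in m234, 778 in m235 and 671 in m236. The ARG1+ library was the higher of the pair in all 5 animals, by 0.39 to 0.63 in log2 CPM, but the animals differed so much in level that the groups overlapped: the ARG1- libraries of m235 and m236 lay above the lowest ARG1+ libraries. The log2 fold change was 0.52 with a standard error (SE) of 0.190 (FDR 0.0890), which did not pass the limit. A 2-sided exact permutation test of the 5 against 5 libraries, which does not use the pairs within animals, gave p = 0.0556. The fit with the animal block gave 0.52 (SE 0.0453, FDR 2.78e-05). DESeq2 without the block also called it, at an adjusted p of 0.0331.

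The 250 bases before the RefSeq start of *Plin2* (GRCm38.p6, chr4:86670060-86670309, reverse strand) are shown because *Plin2* and *Hilpda* are known targets of hypoxia-inducible factors, whose response elements hold the core ACGTG or GCGTG. Capitals mark a core on either strand.
Plin2 upstream: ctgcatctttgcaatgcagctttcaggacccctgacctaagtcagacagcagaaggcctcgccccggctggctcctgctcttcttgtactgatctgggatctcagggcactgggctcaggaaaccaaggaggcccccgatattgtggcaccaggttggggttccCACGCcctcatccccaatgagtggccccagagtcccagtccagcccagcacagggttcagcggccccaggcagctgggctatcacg
A further core spans the start site itself and reads the same on both strands, so that ACGTG is found on each strand with 4 letters shared. It begins 4 bases before the start, in the window chr4:86670048-86670073.
Plin2 start site: gctgggctatCACGTGgctcggaggc
One of these cores or the other is found in 43.8% of all 32851 windows of this length (250 bases before to 50 after a start), so that its presence sets no gene apart. A match is a string of letters and not a measured binding site.

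*Plin3* encodes a perilipin that moves from the cytosol onto newly formed droplets. It lies on chromosome 17 (reverse strand, bases 56277476 to 56292873). ARG1+ libraries had 62.9 CPM in m2, 57.3 in m6, 53.4 in m234, 53.7 in m235 and 55.1 in m236, against 47.4, 44.1, 33.2, 41.4 and 44.6 CPM in the ARG1- libraries of the same animals. The groups did not overlap, with the lowest ARG1+ library above the highest ARG1- one, as was the case for 6.15% of all tested genes. The means of 56.5 ± 3.91 and 42.1 ± 5.44 CPM (± SD over 5 libraries each) stood 1.33-fold apart by the fit, which is 0.41 on the log2 scale (SE 0.0857, FDR 0.00957). The exact permutation test gave p = 0.00794, the smallest that 5 libraries against 5 allow. The call was lost only when both libraries of m6 were left out (log2 fold change 0.43, FDR 0.0534). No core was found in the promoter window of *Plin3*.

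**Figure D2:**
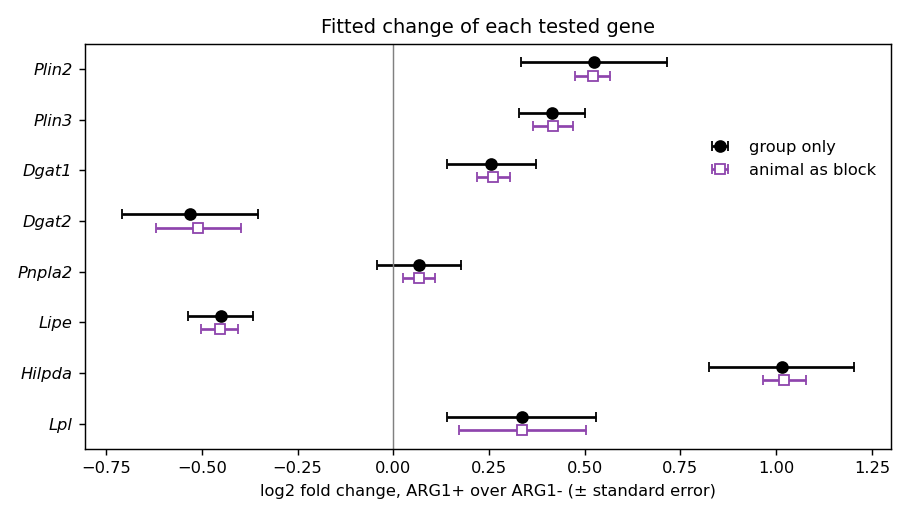
Log2 fold change of ARG1+ over ARG1- cells for each tested gene, with its standard error, fitted with the group alone (black circles) or with a block for the animal (open purple squares). The block leaves each value close to that of the fit without it and shortens every error bar, least for *Lpl*, from 0.194 to 0.165.

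*Dgat1* and *Dgat2* encode unrelated enzymes that both join a fatty acid to diacylglycerol to make triglyceride. *Dgat1* lies on chromosome 15 (bases 76502015 to 76511953) and *Dgat2* on chromosome 7 (bases 99153658 to 99182719), both on the reverse strand. *Dgat1* had 137 CPM in m2, 111 in m6, 119 in m234, 142 in m235 and 150 in m236 in ARG1+ cells. Its ARG1- libraries had 117, 96.5, 85.9, 124 and 128 CPM in the same order. It was higher in ARG1+ cells in all 5 animals, by 0.20 to 0.46 in log2 CPM, while the groups overlapped. The log2 fold change of 0.26 (SE 0.116, FDR 0.164) did not pass the limit without the block and did with it (0.26, SE 0.0434, FDR 0.00135).

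*Dgat2* pointed the other way. It had 45.2 CPM in m2, 51.6 in m6, 53.2 in m234, 63.7 in m235 and 56.2 in m236 in ARG1+ cells, and 70.8, 75.9, 45.3, 108 and 87.5 CPM in the ARG1- libraries. In 4 animals the ARG1+ library was lower, by 0.56 to 0.76 in log2 CPM, and in m234 it was higher by 0.23. The ARG1- library of m234, the shallow one with the highest microglia sum, lay below 4 of the 5 ARG1+ libraries, where the other 4 ARG1- libraries lay above all of them. The log2 fold change was -0.53 (SE 0.177, FDR 0.0690) over all libraries and -0.51 (SE 0.111, FDR 0.00597) with the block. Without the ARG1- library of m234 it was -0.66 (SE 0.125, FDR 0.00779), and without both libraries of m234 -0.66 (FDR 0.0149). Only these 2 of the 15 omissions of libraries or animals passed the limit. The 15 log2 fold changes were -0.66 to -0.38 (FDR 0.00779 to 0.193). DESeq2 called it over all libraries at an adjusted p of 0.0267, while limma-trend did not (-0.47, FDR 0.111).

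Adipose triglyceride lipase, encoded by *Pnpla2*, takes the first fatty acid from stored triglyceride. The gene lies on chromosome 7 (forward strand, bases 141455198 to 141460743). Its ARG1+ libraries had 95.3 CPM in m2, 106 in m6, 89.0 in m234, 104 in m235 and 132 in m236, and its ARG1- libraries 85.2, 102, 92.6, 105 and 117 CPM. The groups overlapped over most of their range, and the ARG1+ library was the higher in 3 animals and the lower in 2. The log2 fold change was 0.07 (SE 0.109, FDR 0.719), and 0.07 (SE 0.0420, FDR 0.240) with the block.

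*Lipe* encodes hormone-sensitive lipase, which acts next, on diacylglycerol, and also cleaves cholesterol esters. It lies on chromosome 7 (reverse strand, bases 25379527 to 25398710). ARG1+ libraries had 23.8 CPM in m2, 25.9 in m6, 28.3 in m234, 23.1 in m235 and 27.9 in m236. ARG1- libraries had 32.9, 35.6, 41.9, 32.1 and 34.8 CPM. *Lipe* was lower in ARG1+ cells in all 5 animals, and its highest ARG1+ value stayed below the lowest ARG1- value, which held for 5.2% of all tested genes. The means were 25.8 ± 2.31 against 35.5 ± 3.87 CPM (± SD over 5 libraries each). The fitted log2 fold change was -0.45 (SE 0.0842, FDR 0.00580), and the exact permutation p was 0.00794. The call held in every alternative, with values of -0.49 to -0.39 when libraries or animals were left out. Of its exon bases, 15.7% overlap the gene *4732471J01Rik* on the other strand, and the sources used here do not say if reads were assigned by strand. That gene had 0.174 to 0.467 CPM over all libraries.

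*Mgll* encodes monoacylglycerol lipase, the last enzyme of the series. It lies on chromosome 6 (forward strand, bases 88724412 to 88828360), and only 7 to 28 of its reads were counted per library. Its level was 0.212 to 0.904 CPM in ARG1+ and 0.278 to 1.18 CPM in ARG1- libraries, with the highest value in each group in m234. A single library lay above 1 CPM, so that the gene was not tested, and the groups overlapped.

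*Hilpda* encodes a small droplet protein that inhibits adipose triglyceride lipase and is known to respond to low oxygen and to fatty acids. It lies on chromosome 6 (forward strand, bases 29272488 to 29275446), with 3 exon blocks. In ARG1+ cells it had 225 CPM in m2, 170 in m6, 148 in m234, 269 in m235 and 188 in m236. In ARG1- cells it had 104 CPM in m2, 86.2 in m6, 64.1 in m234, 129 in m235 and 110 in m236. Here too the lowest ARG1+ library was above the highest ARG1- library, and the difference within an animal was 0.78 to 1.21 in log2 CPM. ARG1+ cells averaged 200 ± 47.7 CPM and ARG1- cells 98.6 ± 24.6 CPM (± SD over 5 libraries each), 2.02-fold apart by the fit (1.01 on the log2 scale, SE 0.189, FDR 0.00575). The exact permutation p was 0.00794. It was called at an FDR below 0.05 in every alternative, with log2 fold changes of 0.88 to 1.13 when libraries or animals were left out, so that the limit of 1 was not always reached.

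RefSeq gives *Hilpda* 2 starts that lie close together. The 250 bases before the first (GRCm38.p6, chr6:29272238-29272487, forward strand) hold neither core and are shown for comparison with *Plin2*.
Hilpda upstream: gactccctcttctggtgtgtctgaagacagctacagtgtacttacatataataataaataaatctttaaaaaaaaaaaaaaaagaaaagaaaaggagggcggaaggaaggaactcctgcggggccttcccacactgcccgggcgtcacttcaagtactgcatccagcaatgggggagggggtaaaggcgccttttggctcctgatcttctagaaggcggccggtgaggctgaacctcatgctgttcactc
Downstream of that start and before the second, at 29272626, 3 cores follow each other, 111, 43 and 8 bases before the second start. They lie in the windows chr6:29272505-29272529, chr6:29272573-29272597 and chr6:29272608-29272632, where capitals mark the core.
Hilpda core 1: accgcgagccGCGTGctttccgtga
Hilpda core 2: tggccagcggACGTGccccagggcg
Hilpda core 3: ggttcggtacGCGTGcgcagtctcc
Promoter windows were at hand for 7 of the 10 genes, 10 windows in all, as *Lipe*, *Mgll* and *Hilpda* had more than 1 each. Of the 7 genes, 5 held at least 1 core (*Plin2*, *Lipe*, *Mgll*, *Hilpda* and *G0s2*), while *Plin3* and *Pnpla2* held none. At least 1 of the cores is in 43.8% of all windows, a share per window that does not allow for genes with more than 1 window. ACGTG is in 19.6% of all windows and GCGTG in 32.4%, counted on both strands. The DR1 element, bound by PPAR and RXR proteins, was searched in a strict form that 0.0396% of all windows hold, and none of the windows of these genes held it.

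*G0s2* encodes another inhibitor of adipose triglyceride lipase. It lies on chromosome 1 (reverse strand, bases 193272161 to 193273217). It had 0 to 3 counts per library, 6 in all over the ARG1+ and 8 over the ARG1- libraries, and was not tested. Libraries with 0 counts were the ARG1+ libraries of m6 and m234, where a count of 0 allows up to 0.0972 and 0.0969 CPM, and the ARG1- library of m234, where it allows 0.353 CPM. These limits cover counting error only. By comparison, *Hilpda* had 545 to 8866 counts per library.

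**Figure D3:**
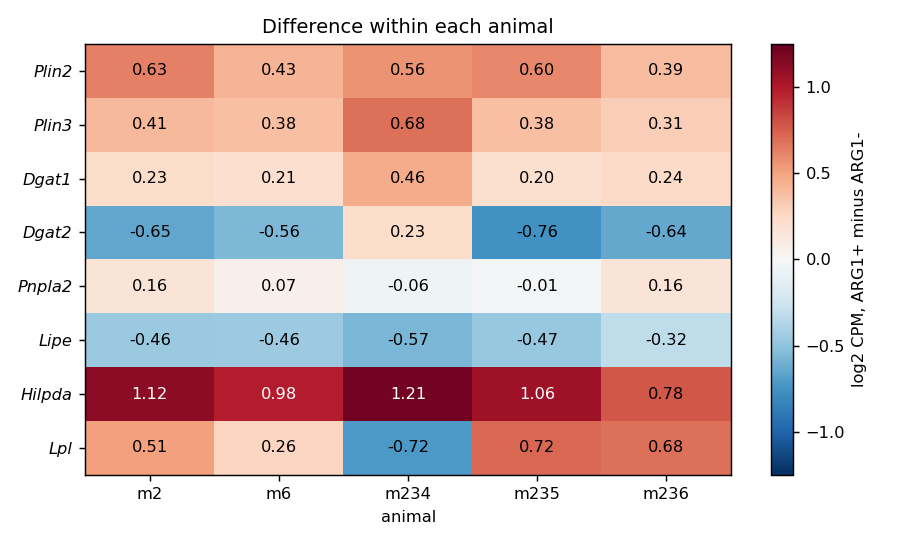
Difference in log2 CPM between the ARG1+ and the ARG1- library of each animal (columns) for each tested gene (rows), printed in the cells, with red for higher and blue for lower in ARG1+ cells. *Hilpda* is between 0.78 and 1.21 in all 5 animals, *Lipe* between -0.57 and -0.32, and the sign of m234 is opposite to that of the other 4 animals for *Dgat2* (0.23) and *Lpl* (-0.72).

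Lipoprotein lipase, encoded by *Lpl*, is secreted and frees fatty acids from circulating or local lipoproteins. The gene lies on chromosome 8 (forward strand, bases 68880491 to 68907448). ARG1+ libraries had 39.0 CPM in m2, 30.5 in m6, 25.8 in m234, 46.8 in m235 and 52.8 in m236, and ARG1- libraries 27.3, 25.4, 42.5, 28.4 and 32.8 CPM. In 4 animals *Lpl* was higher in ARG1+ cells, by 0.26 to 0.72 in log2 CPM, and in m234 it was lower by 0.72. The ARG1- library of m234 held the highest *Lpl* of its group and the ARG1+ library of m234 the lowest of its own. The log2 fold change was 0.34 (SE 0.194, FDR 0.268), and with the block 0.34 (SE 0.165, FDR 0.141). Without both libraries of m234 it was 0.57 (SE 0.154, FDR 0.0370), the only 1 of 15 omissions of libraries or animals to pass the limit. The 15 log2 fold changes were 0.20 to 0.57 (FDR 0.0370 to 0.534). The sums of the microglia markers in m234 are given above, and their part in this difference was not tested.

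Other genes of the same pathways were taken from 5 lists with 69 genes in all, of which 45 were tested. The lists were chosen with earlier results of these data known, so that their counts are a description. Of the 45, 9 were higher in ARG1+ cells and 0 lower at an FDR below 0.05 (6.82% and 6.15% of all tested genes). A log2 fold change above 0 was found for 33 of the 45, with a median of 0.11 (-0.002 over all tested genes). In the blocked fit 19 were higher and 3 lower (16.8% and 18.3% of all tested genes). In the next paragraphs values are mean ± SD over 5 libraries, ARG1+ before ARG1-.

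Among 10 tested genes of the droplet coat and of droplet formation, 1 was higher (3 with the block, which added *Faf2* and *Ldah*) and the median log2 fold change was 0.19. It was *Bscl2*, which encodes seipin, a protein of the sites where droplets form, at 72.9 ± 7.26 against 57.9 ± 4.38 CPM (log2 fold change 0.33, SE 0.0775, FDR 0.0173). *Aup1*, the most abundant of the list, had 140 ± 6.32 and 145 ± 6.42 CPM and a log2 fold change of -0.05 (FDR 0.541). The other perilipins and the CIDE proteins of adipocytes were near 0, with *Plin1* at 4 counts and *Plin5* at 5 counts over all 10 libraries and *Cidea* and *Cidec* without a count.

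Among 11 tested genes of the earlier steps of triglyceride synthesis, 2 were higher (with the block *Agpat2* and *Agpat5* were higher too, and *Agpat3* and *Agpat4* lower) and the median was 0.08. *Gpam*, whose enzyme adds the first fatty acid to glycerol phosphate, changed by 0.48 on the log2 scale (SE 0.0837, FDR 0.00417) at a level of 8.57 ± 0.384 CPM in ARG1+ cells. *Lpin1*, whose enzyme makes the diacylglycerol that both DGAT enzymes use, changed by 0.67 (SE 0.164, FDR 0.0215) at 14.4 ± 2.59 CPM. *Lpin2*, the most abundant of the list and of the same family, had -0.02 (FDR 0.888) at 102 ± 9.57 CPM.

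Among 9 tested genes of lipolysis and of the breakdown of droplets in lysosomes, 3 were higher (5 with the block, which added *Abhd5* and *Pnpla8*) and the median was 0.17. *Lipa*, which encodes the acid lipase of lysosomes and was the most abundant of the list, averaged 314 ± 13.9 CPM in the ARG1+ and 203 ± 10.2 CPM in the ARG1- libraries (0.63 on the log2 scale, SE 0.0542, FDR 0.000110). *Ddhd2*, a lipase known from brain, had 0.40 (FDR 0.00338), and *Prkaca*, a catalytic subunit of protein kinase A, which activates hormone-sensitive lipase, had 0.30 (FDR 0.0413). The lysosomal acid lipase was higher in ARG1+ cells where hormone-sensitive lipase was lower, and both held in all 5 animals.

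Among 6 tested genes that handle lipoprotein lipase, 2 were higher (4 with the block, which added *Lmf2* and *Sel1l*) and the median was 0.15. *Angptl4*, a secreted inhibitor of lipoprotein lipase, averaged 6.96 ± 2.95 against 3.57 ± 0.881 CPM (log2 fold change 0.96, SE 0.282, FDR 0.0440). *Lmf1*, which helps the lipase to fold, had 0.22 (FDR 0.0477), and *Furin*, the most abundant of the list, -0.07 (FDR 0.506). *Gpihbp1*, the anchor of the lipase on capillaries, had no count.

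Among 9 tested transcription factors known for these genes, 1 was higher (with the block *Pparg* and *Nr1h3* were higher too, and *Mlxipl* lower) and the median was 0.08. *Rxra*, the partner of PPAR and LXR proteins on DNA, averaged 125 ± 8.41 against 85.6 ± 5.53 CPM (log2 fold change 0.55, SE 0.0625, FDR 0.000392). *Pparg*, a lipid sensor and its partner, averaged 6.04 ± 1.40 against 3.89 ± 1.05 CPM (log2 fold change 0.61, SE 0.208, FDR 0.0752, and 0.00896 with the block). *Hif1a*, the most abundant of the list, had 676 ± 81.2 and 641 ± 77.4 CPM and a log2 fold change of 0.08 (SE 0.0991, FDR 0.643).

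**Figure D4:**
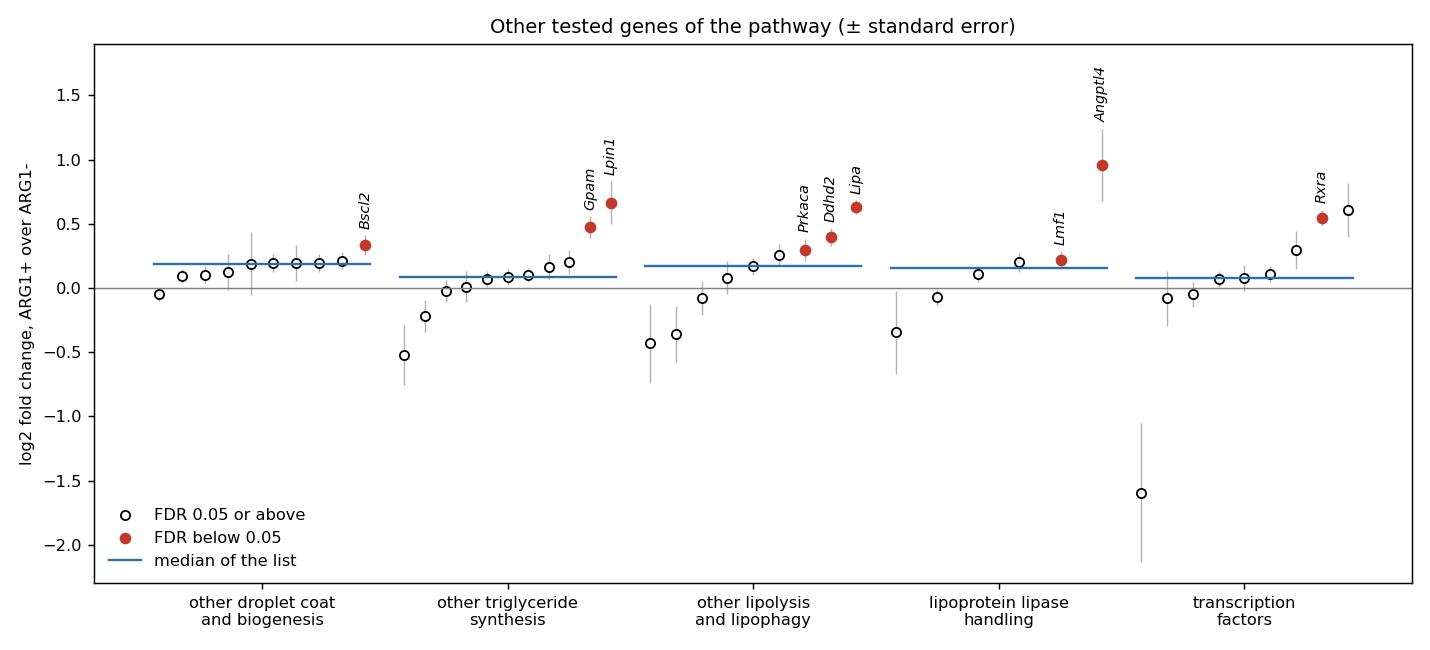
Log2 fold change of ARG1+ over ARG1- cells with its standard error for the 45 tested genes of the 5 lists, sorted within each list, with filled red points for genes at an FDR below 0.05 and a blue line for the median of the list. All 9 filled points lie above 0, and the medians lie between 0.08 and 0.19.

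Genes named only for the blocked fit or for counts near 0 were picked after their values were seen.

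For each called gene, the tested genes with a mean of at least 10 CPM whose 5 differences within animals were closest to its own were looked up, as a description over 5 animals among 8632 genes. Closest to *Hilpda* were *Bcar3* and *Gpc1*, at mean absolute distances of 0.0833 and 0.0924 in log2 CPM. Mean levels in ARG1+ and ARG1- cells were 17.6 and 8.34 CPM for *Bcar3* and 74.3 and 35.1 CPM for *Gpc1*. Closest to *Plin3* were *Pcnx* (distance 0.0266) and *Vegfa* (0.0279), which encodes the vascular growth factor at 1332 and 976 CPM. Closest to *Lipe* was *Dennd4a* (0.0242), with 269 and 366 CPM.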

How the data were processed

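RNA-seq libraries of sorted cells were stranded and read for 50 bases from a single end. The deposited values are whole-number read counts per Ensembl gene without normalization, which the authors made by aligning to GRCm38 (STAR 2.7.10b per the submitters' processing notes, which also name Picard) and counting with summarizeOverlaps in Union mode. Reads that overlap more than 1 feature are left out by this mode. Strand use in counting is not given in these sources.

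The filter of the study was kept (CPM above 1, 3 libraries or more), and the test was run with edgeR 4.0.16 (R 4.3.3), with TMM library sizes, quasi-likelihood test, ARG1+ over ARG1-, Benjamini-Hochberg FDR over all 13740 genes. The SE of an edgeR fit is the absolute log2 fold change divided by the square root of the F statistic of its test. CPM values use TMM sizes. Log2 CPM had a prior count of 2, and exact permutation tests on it were 2-sided. These tests split all libraries without regard to the animal, so that they ignore the pairing. At the lowest depth 1 CPM is 8.50 counts. The animal numbers in the labels pair the libraries: residuals from the group means correlated at 0.361 to 0.664 across genes within an animal and at most 0.0675 between animals. Taking out the group means lowers the values between animals where those within an animal are high, so that these ranges are not independent. The study's methods name limma-trend without a stated block, so the fit without it is the main one. Alternatives were DESeq2 1.42.0, limma-trend (limma 3.58.1), other library sizes and filters, the block, and libraries or animals left out.

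The named genes are all 10 members, the most abundant and every called gene of each list, and the 2 genes most like each called member. Other genes named are marker genes, genes that check the sort, or genes that the report marks as picked after their values were seen. Of the genes that this rule names, 1 is not reported here. Members and lists were chosen with earlier results of these data known. Exon lengths and overlaps come from GENCODE M21 and promoter windows from RefSeq (GRCm38.p6).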

Additional observations from a re-analysis of the deposited data

How the results depend on the processing

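With the animal as a replicate block 4 of the genes described were higher and 2 lower, 19 other pathway genes were higher and 3 lower, and over all tested genes 2307 were higher and 2519 lower (91 and 213 with an absolute log2 fold change above 1). DESeq2 called 3 of the genes higher and 2 lower, 12 other pathway genes higher and 1 lower (*Mlxipl*), and 1276 genes higher and 1307 lower (84 and 186 with the fold change limit). Total counts without TMM called 2 of the genes higher and 2 lower, 0 at both limits, and 701 genes higher and 1282 lower. Without a filter 95 genes were higher and 190 lower at both limits, and 8 other pathway genes were higher and 1, *Mlxipl*, lower. RLE sizes, filterByExpr and limma-trend each called the same 3 genes as reported.

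Leaving out libraries or animals gave 1 to 3 of the genes higher and 1 to 2 lower, 0 to 1 higher at both limits, 4 to 10 other pathway genes higher and 0 to 2 lower, and over all genes 360 to 1037 higher and 284 to 911 lower (53 to 87 and 68 to 168 at both limits). The lowest totals over all genes came without both libraries of m6 (360 and 284) and of m2 (372 and 316). Of 176 log2 fold changes of single genes under alternatives, 164 kept direction and side of the limit, 10 passed it newly, 1 lost it, and *Pnpla2* turned to -0.025 without the ARG1+ library of m236 (range 0.13 to -0.025). *Plin2* passed without the ARG1- library of m235 (0.66, FDR 0.0416). Without the filter *Mgll* had a log2 fold change of 0.10 (FDR 0.937) and *G0s2* -0.54 (FDR 0.775).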

Other observations

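Ratios of pairs of these genes within a library, per length, do not depend on the library size, and the pairs were chosen after their values were seen, so they are given as a description with no test. *Hilpda* per *Pnpla2*, the inhibitor over the lipase it inhibits, was 4.59 ± 1.21 (SD, n = 5) in ARG1+ and 2.34 ± 0.556 (SD, n = 5) in ARG1- cells, with ranges of 3.41 to 6.13 and 1.65 to 2.92 that did not overlap. *Dgat1* per *Dgat2* was 2.95 ± 0.449 in ARG1+ and 1.78 ± 0.358 in ARG1- cells, with ranges of 2.59 to 3.63 and 1.38 to 2.27, and was higher in ARG1+ cells in all 5 animals, m234 included. *Lipe* per *Pnpla2* was 0.119 ± 0.0198 in ARG1+ and 0.172 ± 0.0306 in ARG1- cells, and lower in ARG1+ cells in all 5 animals, while the ranges of 0.102 to 0.152 and 0.142 to 0.217 overlapped. *Plin2* per *Hilpda* was 2.43 ± 0.246 and 3.46 ± 0.363, lower in ARG1+ cells in all 5 animals, with ranges of 2.11 to 2.72 and 2.97 to 3.95. *Plin2* per *Plin3* was 28.7 ± 8.37 and 26.7 ± 6.28, higher in ARG1+ cells in 4 of 5 animals, with ranges of 22.0 to 42.4 and 21.3 to 36.3 that overlapped.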
